A study of Mus musculus with 12 samples.

Results

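The genes described here are 8 scavenger receptor genes (Marco, Msr1, Colec12, Cd36, Scarb1, Olr1, Scarf1 and Cd163) and Cd5l, which encodes a secreted protein of the scavenger receptor cysteine-rich family. They were chosen by symbol, and each of the 9 matched 1 row of the count table of 57010 Ensembl genes. All 9 passed the filter on low counts, and 15943 genes in all did.

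The cells were large peritoneal macrophages of female mice, sorted as F4/80 high and MHC class II low, from wild-type (WT) animals and from animals lacking the receptor Tim4 (Tim4KO). Each genotype was sampled naive, without tumour cells, and 24 h after intraperitoneal injection of ID8ZGO, a form of the mouse ovarian tumour line ID8 that carries the fluorescent protein ZsGreen and OVA (ovalbumin), which gives 4 groups of 3 libraries (WT naive, WT ID8, Tim4KO naive and Tim4KO ID8). Mice given tumour cells were 8 weeks old, and the age of the naive mice is not given in the labels. From injected mice only ZsGreen-positive macrophages were sorted, so a difference between ID8 and naive covers injection, uptake of tumour material and the gate together. The labels give no strain and do not describe the Tim4 allele, and they do not say whether a library came from 1 mouse or from pooled mice. The p-values therefore measure the spread between these libraries, which may be partly technical.

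Scavenger receptors are surface proteins that bind modified lipoproteins, bacterial surfaces and debris of dying cells and carry them into the cell. Resident macrophages of the peritoneal cavity use them to clear particles and apoptotic cells, and several of the receptors feed the cell with cholesterol and fatty acids. Cd5l, also called AIM, is secreted by tissue macrophages, is a known target of the liver X receptors, and was named for its protection of macrophages from apoptosis. The study asked which transcriptional changes follow engulfment of tumour cells when Tim4 is present or missing.

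Library totals ran from 7358559 to 23170244 counts. Levels are given as CPM, counts scaled to a common library size corrected by TMM (trimmed mean of M values), on which 3 counts, taken as the floor, correspond to 0.137 to 0.399 CPM. Timd4, which encodes Tim4, stood at 882 to 1489 CPM in the 6 WT libraries and at 1.38 to 7.71 CPM in the 6 Tim4KO libraries, so every library followed its genotype label. The levels of 9 marker genes of large peritoneal macrophages, Timd4 among them, were summed. The sum lay between 19988 and 26061 CPM in WT naive and between 15050 and 20622 CPM in WT ID8, with overlap. In Tim4KO it lay between 22673 and 25819 CPM in naive and between 18077 and 19254 CPM in ID8. The markers did not move together. In WT, mean Alox15 fell from 11294 to 5493 CPM and Prg4 from 3651 to 2405 CPM. Mean Adgre1 rose from 3157 to 4747 CPM and Gata6 from 159 to 179 CPM. Markers of mast cells (4 genes) summed to 12.2 to 34.0 CPM in naive and at most 9.07 CPM in ID8 libraries. Those of neutrophils (5 genes) summed to 5.66 to 8.45 CPM in naive and 11.4 to 30.1 CPM in ID8 libraries. The neutrophil markers did not all rise. Mean S100a8, the largest part of that sum, rose from 5.53 to 18.0 CPM in WT and from 6.14 to 15.9 CPM in Tim4KO. The means of S100a9 and Retnlg rose too. Mean Mpo fell, from 0.389 to 0.124 CPM in WT and from 0.490 to 0.211 CPM in Tim4KO. Mean Ly6g was at most 0.138 CPM in every group. The part of mast cells or neutrophils in the changes with challenge was not tested. A chi-square comparison of counts over genes, divided by its degrees of freedom, gave 52.6 and 88.1 for WT ID8 3 with WT ID8 1 and 2, against 5.39 to 28.4 for all other pairs of libraries within a group. That library also had the fewest reads in olfactory and vomeronasal receptor genes, which macrophages are not known to use (7.47 CPM, against 44.3 to 792 CPM in the other 11). These background reads also moved with challenge in WT, from 325 to 792 CPM in naive to 7.47 to 247 CPM in ID8 with no overlap, and overlapped in Tim4KO (258 to 445 and 44.3 to 357 CPM). With their level as a covariate, Marco, Colec12, Olr1, Cd163 and Cd5l were still called for challenge in WT. Results that change without WT ID8 3 are given both ways.

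The bases before the start sites of Cd5l, Marco and Olr1 are shown because these 3 members had the largest rises after tumour cell injection in WT cells. RefSeq's promoter table (GRCm38.p6) matched 5 of the 9 members. Each run holds the 250 bases that end at the start site, written 5′ to 3′ on the strand of the gene, and lies at chr3:87357631-87357880 (+ strand) for Cd5l, chr1:120505025-120505274 (- strand) for Marco and chr6:129507166-129507415 (- strand) for Olr1. Capitals mark matches to the motifs named below.
Cd5l: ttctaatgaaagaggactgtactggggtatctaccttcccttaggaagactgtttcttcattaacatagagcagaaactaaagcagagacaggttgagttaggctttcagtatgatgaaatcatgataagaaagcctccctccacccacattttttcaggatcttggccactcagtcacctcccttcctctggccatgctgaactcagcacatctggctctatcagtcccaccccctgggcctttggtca
Marco: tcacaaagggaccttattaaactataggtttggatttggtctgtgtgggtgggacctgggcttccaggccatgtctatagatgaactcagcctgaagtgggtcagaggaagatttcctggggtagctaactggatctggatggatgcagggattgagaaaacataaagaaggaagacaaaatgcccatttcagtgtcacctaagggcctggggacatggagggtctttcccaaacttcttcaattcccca
Olr1: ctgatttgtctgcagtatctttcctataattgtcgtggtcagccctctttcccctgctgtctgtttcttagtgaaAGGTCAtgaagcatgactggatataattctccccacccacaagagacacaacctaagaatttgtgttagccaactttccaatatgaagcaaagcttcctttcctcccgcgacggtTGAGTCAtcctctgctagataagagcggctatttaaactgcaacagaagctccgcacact
Both strands were searched for the letters of AP-1 (TGANTCA), NF-kB (GGGA and TTCC with 2 bases between), the nuclear receptor half-site (AGGTCA), its direct repeats as read by LXR (4 bases between) and PPAR (1 base between), which contain it, a Maf half-site (TGCTGAC), PU.1 (GAGGAAGT) and a TATA box (TATAAA). The Olr1 window held 1 AP-1 match, TGAGTCA, from base -60 to base -54 before the start, and 1 nuclear receptor half-site from base -175 to base -170. Of the 32851 windows of the same length in the table, 6.75% held the AP-1 letters and 14.0% the half-site. No match was found in the Cd5l and Marco windows. A match is a description of these letters and shows no binding, and the choice of motifs was made with the results known.

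Cd5l transcripts were lower in resting macrophages without Tim4. The WT naive libraries held 1166, 1069 and 1180 CPM and the Tim4KO naive libraries 613, 607 and 579 CPM. The groups did not overlap, and the spread within each was small against the gap between them. Means were 1138 ± 60.5 and 599 ± 18.3 CPM (SD, n = 3), a log2 change of -0.93 (SE 0.15, 1.90-fold lower, edgeR adjusted p = 0.0395). In bulk libraries, fewer cells that carry a transcript and less of it per cell cannot be told apart. Cd5l was the 1 member of 9 called in this comparison, where 0.0439% of all tested genes were called (0.0251% higher and 0.0188% lower). Cd5l and Scarf1 had an unadjusted p under 0.05, as did 6.27% of all tested genes. In 12 fits that each omitted 1 library the change stayed between -0.95 and -0.89, while the edgeR adjusted p ran from 0.00986 to 0.226 and passed the threshold in 2 of the 12 fits, those without WT ID8 1 or without WT ID8 3. Cd5l was called in 7 of 8 other settings, and the exception is the fit with a replicate block (edgeR adjusted p = 0.089).

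Challenge raised Cd5l in both genotypes. In WT cells it reached 2046, 2359 and 2579 CPM, a log2 change of 1.03 (SE 0.15, 2.05-fold, edgeR adjusted p = 0.00015). In Tim4KO cells it reached 2134, 1484 and 2043 CPM, a log2 change of 1.65 (SE 0.15, 3.15-fold, edgeR adjusted p = 7.44e-06). The ID8 libraries lay above every naive library of their genotype, and the call held in all 12 fits that left out 1 library and in 8 of 8 other settings in each genotype. Within challenged cells the genotypes overlapped, at 2328 ± 268 CPM in WT and 1887 ± 352 CPM in Tim4KO (SD, n = 3; log2 change -0.30, SE 0.14, edgeR adjusted p = 0.417). The rise in Tim4KO minus that in WT was 0.62 on the log2 scale (SE 0.20, unadjusted p = 0.00799) and was not called over all genes (edgeR adjusted p = 0.668, 0.105 without WT ID8 3). The difference between the genotype gaps of naive and challenged cells is therefore not established. Averaged over both conditions, Cd5l was lower in Tim4KO by a log2 change of -0.61 (SE 0.10, edgeR adjusted p = 0.026), which fell short of the threshold with a replicate block (edgeR adjusted p = 0.0517) and in 8 of 12 fits that left out 1 library (highest edgeR adjusted p = 0.11).

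**Figure D1:**
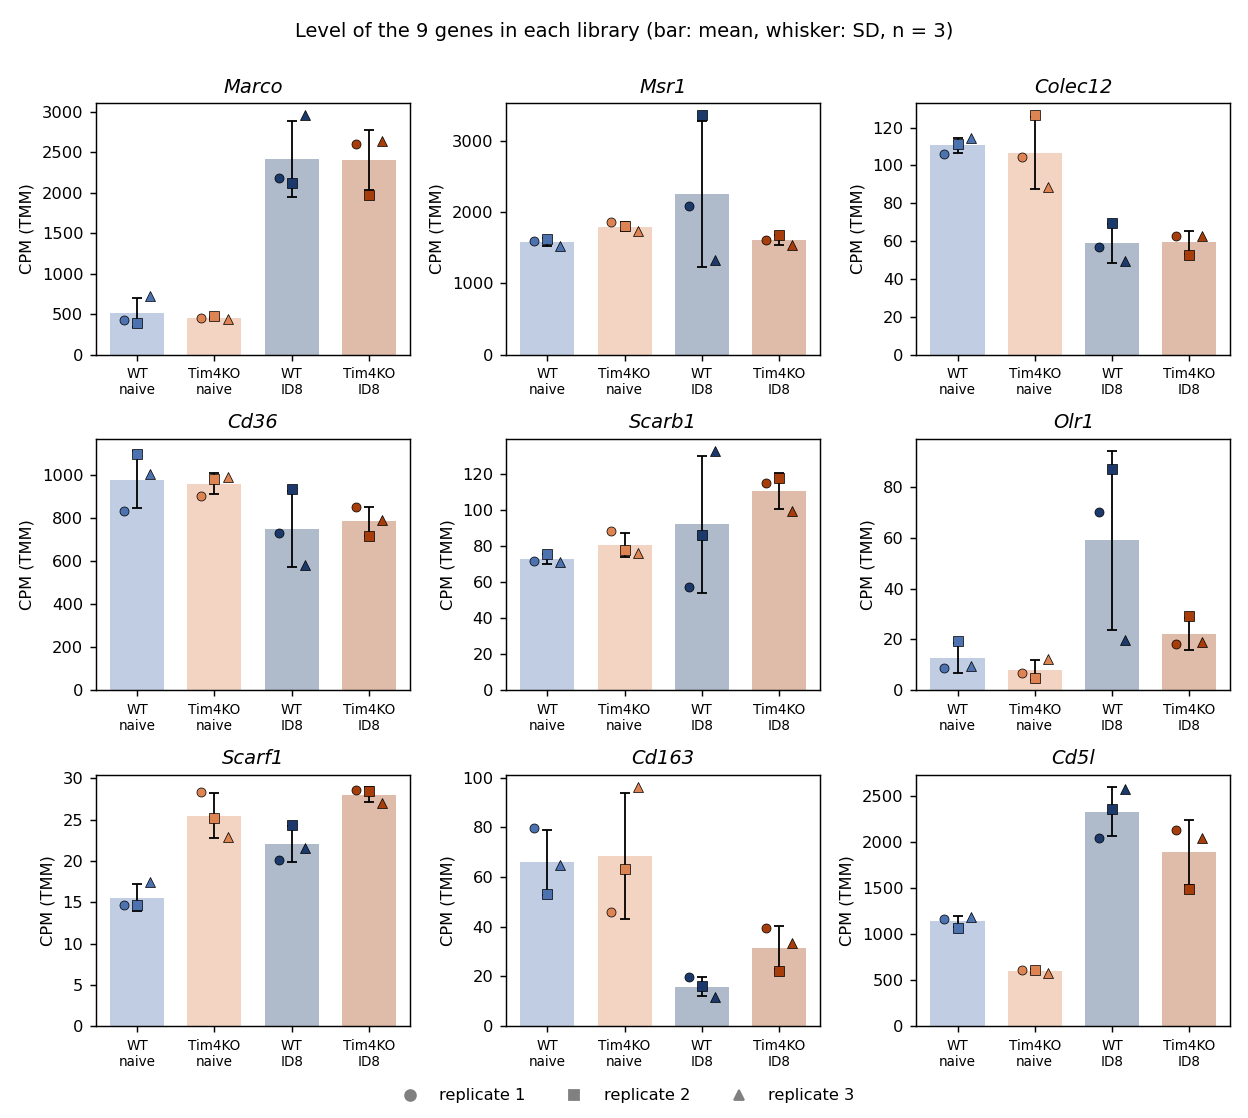
Level of each of the 9 genes in CPM (linear axis from 0) in the 12 libraries: bars are group means, whiskers the SD of 3 libraries, and symbols the replicate number. Cd5l lies at 579 to 613 CPM in Tim4KO naive and at 1069 to 1180 CPM in WT naive, and Marco is higher in all ID8 libraries. The WT ID8 libraries are scattered for Msr1, Olr1 and Scarb1, and WT ID8 3 (triangle) is the lowest of them for Msr1 and Olr1 and the highest for Scarb1.

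Of the receptors with a collagen-like stalk, Marco, which binds bacteria and inert particles, had the largest change of the 9 members. It stood at 430, 394 and 722 CPM in WT naive and at 2181, 2113 and 2953 CPM in WT ID8. In Tim4KO it went from 454, 470 and 444 CPM in naive to 2602, 1971 and 2636 CPM in ID8. All ID8 libraries were above all naive libraries, with 1 naive library, WT naive 3, above the other naive ones. The log2 change was 2.23 in WT (SE 0.22, 4.69-fold, edgeR adjusted p = 8.61e-06) and 2.40 in Tim4KO (SE 0.22, 5.27-fold, edgeR adjusted p = 9.45e-06), and every alternative setting and every fit that left out 1 library called both. Between genotypes Marco differed by less than its SE within naive cells (log2 change -0.18, SE 0.21, edgeR adjusted p = 0.941) and within challenged cells (-0.01, SE 0.21, edgeR adjusted p = 0.991).

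Msr1, the class A receptor for acetylated lipoproteins and apoptotic cells, was among the most abundant members, but its edgeR adjusted p, with all libraries, the filter on low counts and no covariate, passed the threshold in none of the 6 comparisons. The WT naive libraries held 1597, 1630 and 1529 CPM and the Tim4KO naive libraries 1862, 1808 and 1734 CPM. These groups did not overlap, yet the log2 change was 0.18 with an SE of 0.23 (edgeR adjusted p = 0.944). That SE uses a spread estimated over all 12 libraries. The SD was 51.4 CPM in WT naive and 64.2 CPM in Tim4KO naive, against 1027 CPM in WT ID8. The WT ID8 libraries were scattered, at 2087, 3366 and 1335 CPM, and the Tim4KO ID8 libraries lay close together at 1618, 1675 and 1537 CPM. The lowest WT ID8 value belongs to WT ID8 3, below every other library of the series. Without that library Msr1 was higher after challenge in WT (log2 change 0.81, edgeR adjusted p = 0.000516, against 0.51 and 0.0968 with all libraries), as it was with no filter on low counts (0.62, edgeR adjusted p = 0.000718) and with a covariate for background reads (0.84, 0.0297). Without it Msr1 was also lower in Tim4KO ID8 than in WT ID8 (-0.77, edgeR adjusted p = 0.0071, against -0.49 and 0.411) and its interaction was called (-0.96, edgeR adjusted p = 0.0225, against -0.68 and 0.668). Leaving out WT ID8 2, the highest library, instead brought these changes to 0.14 after challenge in WT (edgeR adjusted p = 0.538), -0.09 between genotypes in ID8 (0.930) and -0.29 for the interaction, and turned the genotype difference averaged over both conditions from -0.15 to 0.05, so the Msr1 results that use WT ID8 rest on single libraries of that group. The challenge change in Tim4KO was -0.16 (SE 0.23, edgeR adjusted p = 0.677), without overlap of the libraries. In the 12 fits that left out 1 library it stayed between -0.18 and -0.11. The naive genotype change stayed between 0.16 and 0.22.

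Colec12, a collectin-type scavenger receptor known mainly from vascular and stromal cells, fell with challenge in both genotypes. It stood at 106, 111 and 114 CPM in WT naive and at 57.1, 69.5 and 49.6 CPM in WT ID8. In Tim4KO it stood at 105, 126 and 88.6 CPM in naive and at 62.7, 52.4 and 62.9 CPM in ID8. The groups did not overlap in either genotype, and the log2 changes were -0.92 (SE 0.15, edgeR adjusted p = 0.00054) in WT and -0.84 (SE 0.15, edgeR adjusted p = 0.00197) in Tim4KO, called in every setting run. Markers of fibroblasts (6 genes, Col1a1 and Dcn among them) summed to 4.27 to 14.2 CPM in WT naive and 0.137 to 2.99 CPM in WT ID8, and to 3.33 to 8.00 CPM and 0.692 to 5.54 CPM in Tim4KO. Markers of endothelial cells (5 genes, Cdh5 and Kdr among them) summed to 1.80 to 6.39 CPM in WT naive and 0.601 to 1.84 CPM in WT ID8, and to 2.21 to 4.11 CPM and 0.922 to 3.32 CPM in Tim4KO, and no marker of either list was at 0 in all 3 libraries of a group. The highest group mean of a single marker in these 2 lists was 3.22 CPM, for Col1a1 in WT naive. Markers of B cells (5 genes) also summed to less in WT ID8 (2.15 to 6.68 CPM) than in WT naive (8.03 to 13.6 CPM). The background reads were lower in WT ID8 as well. The part of such cells in the Colec12 change was not tested.

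The class B receptors Cd36 and Scarb1 were not called by edgeR in any comparison with all libraries, TMM and the low-count filter. Cd36 takes up oxidised lipoproteins and long-chain fatty acids. It stood at 835, 1096 and 1003 CPM in WT naive and at 729, 933 and 584 CPM in WT ID8, and these groups overlapped. In Tim4KO it stood at 903, 981 and 991 CPM in naive and at 849, 716 and 790 CPM in ID8, without overlap. Its log2 change with challenge was -0.39 in WT (SE 0.16, edgeR adjusted p = 0.0761) and -0.29 in Tim4KO (SE 0.16, edgeR adjusted p = 0.25). The WT change passed the threshold with DESeq2 size factors (-0.44, edgeR adjusted p = 0.0381), with upper-quartile scaling (-0.63, edgeR adjusted p = 0.00518), by DESeq2 (-0.44, adjusted p = 0.0161) and without WT ID8 2 (-0.55, edgeR adjusted p = 0.0232). Genotype differences of Cd36 were within 0.07 on the log2 scale, below their SE of 0.16.

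Scarb1, the high-density lipoprotein receptor that takes up cholesteryl esters, had steady naive levels of 71.8, 75.7 and 71.0 CPM in WT and 88.4, 77.8 and 76.2 CPM in Tim4KO. In WT ID8 it was spread over 57.3, 86.2 and 133 CPM, and in Tim4KO ID8 it was 115, 118 and 99.2 CPM. The highest WT ID8 value was that of WT ID8 3. Every Tim4KO ID8 library was above every Tim4KO naive library, but the log2 change of 0.45 (SE 0.22) was not called (edgeR adjusted p = 0.174, or 0.0254 when WT ID8 3 was left out, a library that this contrast does not compare but that shares the fit). The WT change of 0.34 (SE 0.22, edgeR adjusted p = 0.223) became 0.66 without WT ID8 1 (edgeR adjusted p = 0.00788) and 0.01 without WT ID8 3, passed the threshold when low-count genes were kept (0.47, edgeR adjusted p = 0.0425) and was -0.22 with the covariate for background reads. Between genotypes in challenged cells Scarb1 had a log2 change of 0.26 (SE 0.21, edgeR adjusted p = 0.638), which without WT ID8 3 was 0.62 (edgeR adjusted p = 0.0304) and without WT ID8 1 was -0.04 (0.922).

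Olr1, the lectin-like receptor for oxidised low-density lipoprotein, was rare in naive cells, at 8.88, 19.4 and 9.5 CPM in WT and 6.97, 4.79 and 12.3 CPM in Tim4KO. In WT ID8 it reached 70.2, 87.0 and 19.6 CPM, a log2 change of 2.20 (SE 0.58, 4.61-fold, edgeR adjusted p = 0.0197). WT ID8 3 was barely above the highest WT naive library, and the other WT ID8 libraries were far above it. The call was lost without WT naive 1, WT naive 3 or WT ID8 2 (edgeR adjusted p of 0.0693, 0.0768 and 0.0612), without a filter on low counts (0.0512) and in the fit to only the 2 groups (0.061), and the change was positive in each. In Tim4KO ID8 it stood at 18.1, 29.3 and 19 CPM, above all Tim4KO naive libraries, with a log2 change of 1.42 that was not called (SE 0.59, edgeR adjusted p = 0.142, or 0.0499 when WT ID8 3 was left out). The genotype difference in challenged cells was -1.41 on the log2 scale (SE 0.56, edgeR adjusted p = 0.375), and leaving out WT ID8 3 gave -1.84 (edgeR adjusted p = 0.0451) and leaving out WT ID8 2 gave -1.01.

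Scarf1, a receptor with epidermal growth factor-like repeats that binds modified lipoproteins and complement-coated apoptotic cells, was higher in Tim4KO cells when both conditions were averaged. It stood at 14.6, 14.7 and 17.4 CPM in WT naive against 28.3, 25.2 and 22.9 CPM in Tim4KO naive. In challenged cells it stood at 20.1, 24.4 and 21.6 CPM in WT against 28.6, 28.5 and 27.0 CPM in Tim4KO. In neither condition did the genotypes overlap. The averaged log2 change was 0.53 (SE 0.10, 1.44-fold, edgeR adjusted p = 0.0347), and with Cd5l it made 2 of 9 members called, where 0.289% of tested genes were called (0.138% higher and 0.151% lower). An unadjusted p under 0.05 was found for 4 members, beside 11% of all tested genes. Within naive cells alone it was 0.71 (SE 0.14, edgeR adjusted p = 0.178) and within challenged cells 0.35 (SE 0.14, edgeR adjusted p = 0.337), neither called by edgeR with all libraries. The naive difference was called by DESeq2 (0.69, adjusted p = 0.00667) and without WT ID8 3 (0.71, edgeR adjusted p = 0.0467). The averaged call was lost with a replicate block (edgeR adjusted p = 0.0736), without a filter on low counts (0.0613) and in 10 of 12 fits that left out 1 library, with changes of 0.48 to 0.57 and a highest edgeR adjusted p of 0.155. Challenge raised Scarf1 in WT (0.50, SE 0.14, 1.41-fold, edgeR adjusted p = 0.0134), where the call was lost with upper-quartile scaling (0.26, edgeR adjusted p = 0.115), with a covariate for background reads (0.47, 0.0848) and in the fit to only the 2 groups (0.40, 0.0941). In Tim4KO, where the naive level was already near that of WT ID8, the change was 0.14 (SE 0.14, edgeR adjusted p = 0.533), and the difference between the responses was not called (-0.36, SE 0.19, edgeR adjusted p = 0.676).

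Cd163, the receptor for haptoglobin-haemoglobin complexes, had the largest fall of the 9 members. It stood at 79.6, 53.3 and 65.0 CPM in WT naive and at 19.9, 16.1 and 11.9 CPM in WT ID8, a log2 change of -2.06 (SE 0.30, 4.17-fold lower, edgeR adjusted p = 0.000434). In Tim4KO it went from 46.1, 63.1 and 96.2 CPM to 39.4, 22.1 and 33.4 CPM, a log2 change of -1.11 (SE 0.29, 2.17-fold lower, edgeR adjusted p = 0.0208). Naive and ID8 libraries did not overlap in either genotype. The WT call held in every setting run, and the Tim4KO call was lost without Tim4KO naive 2, Tim4KO naive 3, Tim4KO ID8 2 or Tim4KO ID8 3 (edgeR adjusted p of 0.062 to 0.0926, with a change of -0.76 without Tim4KO naive 3) and with a covariate for background reads (0.0589). Every Tim4KO ID8 library was above every WT ID8 library, with means of 31.6 ± 8.74 and 16 ± 4 CPM (SD, n = 3). That difference was not called by edgeR with all libraries (log2 change 1.01, SE 0.30, edgeR adjusted p = 0.251), while DESeq2 (0.99, adjusted p = 0.0326) and edgeR without a filter on low counts (0.97, adjusted p = 0.000108) called it. The difference between the falls was 0.95 (SE 0.41, edgeR adjusted p = 0.668). Markers of small peritoneal macrophages and dendritic cells (8 genes, none at 0 in a whole group) summed to 141 to 267 CPM in WT naive and 60.9 to 168 CPM in WT ID8, and to 157 to 194 CPM and 132 to 179 CPM in the Tim4KO groups, and their part in the Cd163 change was not tested.

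Counted over the 9 members, challenge called 6 in WT, 4 higher (Marco, Olr1, Cd5l and Scarf1) and 2 lower (Colec12 and Cd163), against 31.8% of all tested genes called in that comparison (19.5% higher and 12.3% lower). In Tim4KO it called 4, with Marco and Cd5l higher and Colec12 and Cd163 lower, against 16.6% of all genes (11.5% higher and 5.06% lower). The median log2 change of the members was 0.50 in WT and 0.14 in Tim4KO, beside -0.04 and -0.05 over all tested genes. An unadjusted p under 0.05 was found for 8 members in WT and 5 in Tim4KO, beside 45.5% and 29.9% of all tested genes. Libraries did not overlap for 6 members in WT and 8 in Tim4KO, where 44.4% and 41.9% of all tested genes did not. Upper-quartile scaling moved the median of all genes to -0.28 in WT and -0.17 in Tim4KO and the share of higher genes among the calls from 61.3% to 33.9% in WT and from 69.5% to 48.7% in Tim4KO. Under that scaling the calls of Marco, Cd5l, Colec12 and Cd163 held in both genotypes with their directions.

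Between genotypes, 1 member was called in naive cells and 0 in challenged cells, where 0.0565% of all tested genes were called (0.00627% higher and 0.0502% lower). In challenged cells 3 members (Olr1, Scarf1 and Cd163) had an unadjusted p under 0.05, as did 12.1% of all genes; DESeq2 called 1 of them, Cd163, and limma voom 0. Libraries of the genotypes did not overlap for 4 members in naive cells (Msr1, Scarb1, Scarf1 and Cd5l) and for 2 in challenged cells (Scarf1 and Cd163), beside 14.2% and 15.6% of all genes. The interaction, which compares the challenge responses, called 0 members and 0.0% of all genes by edgeR, and DESeq2 and limma voom called 0 members. Unadjusted p under 0.05 was found for 2 members, Cd5l and Cd163, and for 7.44% of all genes. The comparisons share libraries, since each group enters 1 comparison between genotypes and 1 between conditions.

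Levels of different genes were compared per kilobase of exon. The length counted each base in any annotated exon of a gene once, 2036 bases for Cd5l and 6344 for Msr1. The order depends on this length, which can exceed that of the transcripts present. In plain CPM, mean Msr1 (1585) was above mean Cd5l (1138) in WT naive. In WT naive cells Cd5l led the members at 559 ± 29.7 CPM per kb and made up 40.2% of their summed level. Cd36 (272 ± 36.9), Marco (268 ± 93.5) and Msr1 (250 ± 8.11 CPM per kb) followed and overlapped each other in turn. Colec12, Cd163, Scarb1, Scarf1 and Olr1 lay between 3.53 and 12.7 CPM per kb. In Tim4KO naive cells Cd5l, at 294 ± 8.97 CPM per kb, overlapped with Msr1 (284 ± 10.1), so the lead per kb of Cd5l in WT naive was not found there. After challenge Marco and Cd5l led in both genotypes, at 1255 ± 242 and 1143 ± 132 CPM per kb in WT and at 1248 ± 195 and 927 ± 173 CPM per kb in Tim4KO, and the libraries of the 2 genes overlapped. Cd163 had the lowest mean of the members in both challenged groups. It was 2.92 ± 0.733 CPM per kb in WT and 5.79 ± 1.60 CPM per kb in Tim4KO (SD, n = 3 throughout). In Tim4KO its libraries overlapped with those of Olr1 and of Colec12. The 9 genes together took 0.444% to 0.482% of all counts in WT naive, 0.398% to 0.437% in Tim4KO naive, 0.727% to 0.81% in WT ID8 and 0.619% to 0.72% in Tim4KO ID8.

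**Figure D2:**
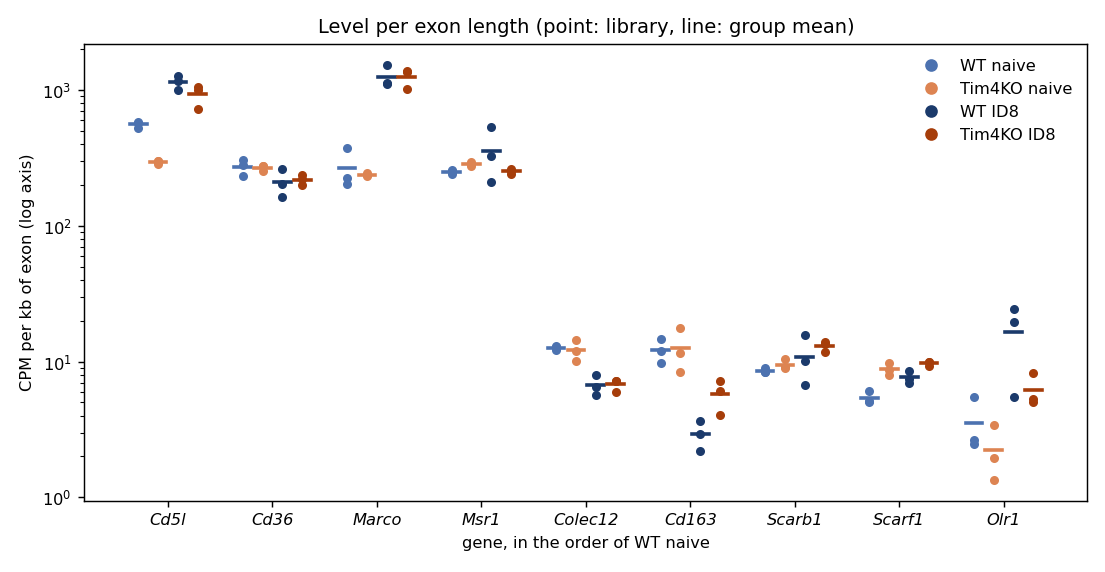
Level of each gene in CPM per kilobase of exon (log axis) in the 4 groups, with 1 point per library and a line at the group mean, ordered by the WT naive level. Cd5l, Cd36, Marco and Msr1 lie at 250 to 559 CPM per kb in WT naive and the other 5 genes at 3.53 to 12.7.

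**Figure D3:**
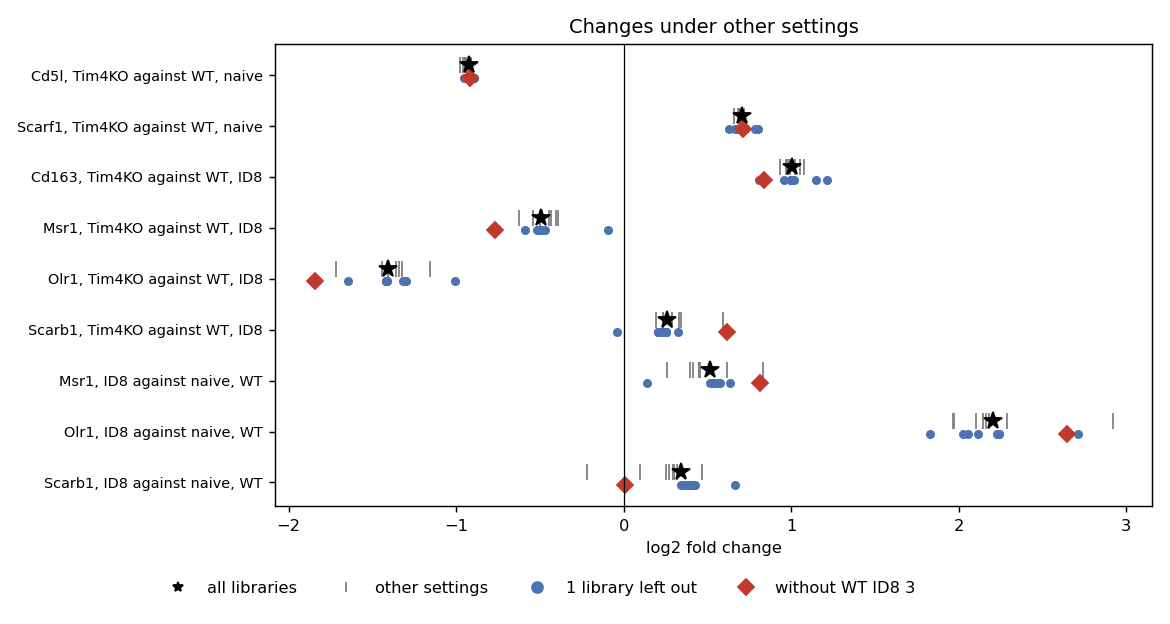
Log2 fold change (x axis) of 9 gene and comparison pairs under every setting: the star is the fit with all libraries, bars are other settings, circles are fits without 1 library, and the diamond is the fit without WT ID8 3. Cd5l in naive cells stays between -0.98 and -0.89, whereas Msr1, Olr1 and Scarb1 move most with single WT ID8 libraries.

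Other scavenger receptors, from a list of 19 genes of which 16 were tested, were called in both directions after challenge: 3 higher and 4 lower in WT, and 3 higher and 1 lower in Tim4KO. Of all tested genes, 19.5% were called higher and 12.3% lower in WT, and 11.5% and 5.06% in Tim4KO. The list median was -0.61 in WT and -0.09 in Tim4KO. Clec7a, the beta-glucan receptor, fell from 192 ± 24.0 to 52.5 ± 12.2 CPM in WT (log2 change -1.87, SE 0.18, edgeR adjusted p = 6.06e-06). Cd68, a lysosomal glycoprotein of macrophages, rose from 618 ± 32.6 to 1334 ± 147 CPM in WT (1.11, SE 0.13, edgeR adjusted p = 3.84e-05) and Cd44, the hyaluronan receptor, from 316 ± 9.98 to 873 ± 264 CPM (1.47, SE 0.20, edgeR adjusted p = 0.000147). In Tim4KO Clec7a fell by 1.82 and Cd68 rose by 1.24 on the log2 scale, and Lrp1, a receptor for many ligands and a partner in uptake of apoptotic cells, rose by 1.20 (SE 0.23, edgeR adjusted p = 0.00325, and by 0.80 in WT, 0.0178). Between genotypes edgeR called 0 of the 16 in naive and in challenged cells, with 2 and 4 at an unadjusted p under 0.05. Of all tested genes, 6.27% and 12.1% had such a p. DESeq2 called 0 and 3 and limma voom 0 and 0. Scarf2, a relative of Scarf1, had the smallest p in challenged cells, at 7.89 ± 0.443 CPM in WT and 15.1 ± 3.24 CPM in Tim4KO (log2 change 0.94, SE 0.18, edgeR adjusted p = 0.0787).

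Transcription factors known to act on these genes (12 listed and tested) were called 3 higher and 1 lower in WT and 2 higher and 2 lower in Tim4KO after challenge, with medians of 0.05 and 0.07. Of all tested genes, 31.8% were called in WT and 16.6% in Tim4KO. Nr1h3, which encodes liver X receptor alpha, a known activator of Cd5l, went from 4.57 ± 1.25 to 20 ± 11.4 CPM in WT (log2 change 2.11, SE 0.33, edgeR adjusted p = 0.000416). The macrophage factor Spi1 and the lipogenic factor Srebf1 rose in both genotypes, by 0.50 and 0.49 in WT and by 0.39 and 0.65 in Tim4KO on the log2 scale (edgeR adjusted p from 0.00298 to 0.0302). They were the 2 listed genes called higher in Tim4KO, so Nr1h3 was not called higher there. Maf fell in Tim4KO (-1.02, SE 0.21, edgeR adjusted p = 0.00417). Between genotypes edgeR called 0 of the 12 in naive and in challenged cells, with 0 and 3 at an unadjusted p under 0.05. Of all tested genes, 6.27% and 12.1% had such a p. DESeq2 called 0 and 1 and limma voom 0 and 0. In challenged cells Nr1h3 had a log2 change of -1.10 (SE 0.32, edgeR adjusted p = 0.231), with 9.30 ± 1.19 CPM in Tim4KO ID8.

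Ligands, adaptors and signalling partners (13 listed, 12 tested) were called 3 higher and 2 lower in WT and 1 higher and 2 lower in Tim4KO after challenge, with medians of 0.06 and -0.09. Of all tested genes, 31.8% were called in WT and 16.6% in Tim4KO. Hmox1, which degrades the haem that Cd163 brings in, rose from 110 ± 17.7 to 238 ± 45.5 CPM in WT (log2 change 1.11, SE 0.16, edgeR adjusted p = 0.000191), while Cd163 itself fell there. Fasn, the fatty acid synthase that Cd5l protein is known to inhibit, rose by 0.81 in WT (SE 0.18, edgeR adjusted p = 0.00387) and by 1.5 in Tim4KO (SE 0.18, edgeR adjusted p = 0.000107) on the log2 scale. It was the 1 listed gene called higher in Tim4KO, so Hmox1 was not called higher there. The fatty acid carrier Fabp4 fell in WT (-0.99, SE 0.17, edgeR adjusted p = 0.000658) and in Tim4KO (-0.95, SE 0.17, edgeR adjusted p = 0.00164). Between genotypes edgeR called 0 of the 12 in naive and in challenged cells, with 0 and 3 at an unadjusted p under 0.05. Of all tested genes, 6.27% and 12.1% had such a p. DESeq2 called 0 and 1 and limma voom 0 and 0.

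The genes whose level followed each member most closely over the 12 libraries were listed by Pearson r of log2 CPM, as a description. These libraries share the naive and ID8 split, which any gene that responds to challenge also shows. For Cd5l they were Gngt2 (r = 0.989) and Dpysl3 (r = 0.976). For Marco they were Gpnmb (r = 0.988), Mtmr9 (r = 0.981) and Anpep (r = 0.978), and for Cd163 Gas6 (r = 0.975), Fbxl12 (r = 0.972) and Prkag2 (r = 0.959). Colec12 was followed most closely by Zfp943 (r = 0.987), Olr1 by Slc7a8 (r = 0.969), Msr1 by Nab1 (r = 0.965), Scarb1 by Slc35e1 (r = 0.961), Cd36 by Ppp3ca (r = 0.942) and Scarf1 by Sh3tc1 (r = 0.940). The levels of Msr1 and Scarb1 were most scattered within WT ID8. Their SDs there were 1027 and 38.0 CPM, against at most 69.2 and 10.0 CPM in the other groups. Their r values thus lean on single WT ID8 libraries. Among the members themselves, Marco and Colec12 were most opposed (r = -0.91) and Marco and Cd5l most alike (r = 0.893).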

How the data were processed

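Sorted macrophages gave RNA (RNeasy micro kit) for SMART-Seq mRNA LP libraries, per the labels' protocols. The values are raw counts of reads per Ensembl gene that the authors deposited as 1 table, read as raw from their whole numbers and unequal totals. The submitters' processing notes name FastQC, STAR 2.5 and the builds mm10 and GRCm39; the counting program, annotation and strand handling are not given in the sources used here. Names and exon lengths came from GENCODE vM21, which named 52029 of 57010 identifiers, and exons of the 9 members overlap no other gene there. No molecular identifiers were used, so floors cover counting error only.

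Counts were fitted with edgeR 4.0.16 in R 4.3.3 (filterByExpr, TMM, robust quasi-likelihood, 1 mean per group over all 12 libraries), with two-sided F tests for 6 contrasts and Benjamini-Hochberg adjustment over the 15943 tested genes. Genes were called at an adjusted p under 0.05, and SEs were derived from the log2 change and its F value (absolute change over root F). Alternatives were DESeq2 1.42.0, limma 3.58.1 (voom), other scalings, no low-count filter, only the groups compared, a replicate block, a covariate for background reads (the log2 summed CPM of 1949 olfactory and vomeronasal receptor genes with a mean of at most 1 CPM) and leaving out each library. The fit was tested on simulated data with known changes. Those data held no outlying library and no shift in background reads, so that test cannot show how either affects the calls. All members and the Timd4 check are named. From context lists up to 3 genes with the smallest p in a comparison were named, and likeness was ranked among genes whose counts averaged 50 or more, on log2(CPM + 0.5). One gene that this ranking named is not reported here. The members, lists and motifs were chosen with earlier results of these data known. Deviations of equally numbered libraries from their group means correlated at 0.103 to 0.309 between WT naive and WT ID8, over the 0.1 taken as pairing, and the blocked fit called the same 6 members there. No other compared pair of groups met that limit. Between WT naive and WT ID8, only 2 of 6 libraries were closest to their own number.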

Additional observations from a re-analysis of the deposited data

How the results depend on the processing

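The number of members called in naive cells between genotypes was 1 with all libraries, 2 by DESeq2 (Cd5l and Scarf1) and 0 with a replicate block, and 0 to 2 when single libraries were left out. In challenged cells it was 0, against 1 by DESeq2 and 1 without a filter on low counts (Cd163 in both), and 0 to 3 without single libraries, the 3 (Msr1, Scarb1 and Olr1) without WT ID8 3. Averaged over both conditions it was 2, against 0 with a replicate block and 0 to 2 without single libraries, and without a low-count filter it was 2 with Cd163 (0.52, edgeR adjusted p = 0.0145) in place of Scarf1. For challenge it was 5 to 7 in WT and 3 to 6 in Tim4KO without single libraries, and the fit to only the 2 groups gave 4 in WT, losing Olr1 and Scarf1, and 7 in Tim4KO, which added Cd36, Scarb1 and Olr1. The interaction gave 0 to 1 (Msr1 without WT ID8 3).

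The replicate block lost the calls of Cd5l in naive cells and of Cd5l and Scarf1 in the average over conditions, and changed no other call of a member. Equal numbers are not known to pair libraries in the genotype comparisons, where they correlated at 0.0704 to 0.328 in naive and -0.0251 to 0.0657 in challenged cells, and 4 and 2 of 6 libraries were closest to their own number. The cause of each lost call was not tested. Without single libraries the fits have fewer samples. No member that was called in the fit with all libraries, TMM and the low-count filter changed direction in any setting in the comparison that called it. Among members called under another setting only, Scarb1 turned direction, to -0.04 between genotypes in challenged cells without WT ID8 1 and to -0.22 with challenge in WT with the background covariate.

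Over all genes, naive genotype calls went from 7 to 52 by DESeq2, 4 by limma voom, 59 without a low-count filter, 3 with the replicate block and 2 with only the groups compared, and to 1 to 29 without single libraries. Challenged genotype calls went from 9 to 265, 264, 14 (block) and 197 (background covariate), in that order DESeq2 first and the unfiltered fit next, and to 1 to 997 without single libraries, the 997 without WT ID8 3. For challenge the count was 5067 in WT and 2642 in Tim4KO, against 3102 in WT with only the groups compared, 3362 without WT naive 3, and 1222 to 1666 in Tim4KO without single Tim4KO libraries other than Tim4KO naive 1. The averaged genotype calls went from 46 to 210, 195, 10 (block) and 127 (background covariate), in the same order. Interaction calls went from 0 to 11 by DESeq2, 73 without a low-count filter and 2 with the covariate, and to 368 without WT ID8 3. Without that library the averaged calls rose to 396, and without other single libraries they fell to as few as 8.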
